A study of Mus musculus with 2 samples.

Results

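The cells described here are dividing GABAergic progenitors of the mouse forebrain at postnatal day 3 (P3): single cells that carried transcripts of the GABAergic lineage factors Dlx1 and Dlx2 together with the division genes Mki67 and Top2a. They were chosen by counts of unique molecular identifiers (UMIs), each of which stands for 1 captured transcript. A barcode with at least 500 detected genes and at most 10% mitochondrial UMIs was a member if it had at least 2 UMIs of Dlx1 and Dlx2 summed, at least 2 UMIs of Mki67 and Top2a summed, no UMI of Pdgfra, which marks oligodendrocyte precursor cells (OPCs), and none of Neurod2 or Neurod6, which mark glutamatergic neurons. Of 22193 cells in 2 libraries, 695 were members, 362 in replicate 1 and 333 in replicate 2. Pairs of values below give replicate 1 and then replicate 2.

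All cells belong to 1 group, wild-type mouse brain. EdU, a thymidine analogue that cells take up into DNA as they copy it and that later divisions dilute, dated cells at embryonic day 12 (E12), per the labels' protocols. At P3 the pallium was dissected and pooled, and viable cells in the brightest 10% for EdU went into a droplet assay that counts transcripts at their 3′ ends. The study has no treatment or control, so cells were compared inside the same libraries, and the sort sets which cells could be seen. The labels do not tell whether the libraries came from different pools, so every p-value below rests on a spread that may be technical.

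As background, Dlx homeobox factors are made by progenitors of the ganglionic eminences and, after birth, of the subventricular zone along the lateral ventricle, where they direct cells to a GABAergic fate. Postnatal GABAergic progenitors pass from slowly dividing radial glia or stem cells, through transit-amplifying cells, to neuroblasts that still divide while they migrate towards the olfactory bulb. Interneurons of the cortex, born earlier in the medial and caudal ganglionic eminences (MGE and CGE), have left the cell cycle by this age.

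Members made up 3.22% of the cells of replicate 1 (362 of 11228; exact Clopper-Pearson 95% interval 2.91 to 3.57%) and 3.04% of replicate 2 (333 of 10965; 2.72 to 3.38%), or 3.13% ± 0.132 (SD, n = 2). Among Dlx-positive cells without Pdgfra, Neurod2 or Neurod6 UMIs, 38.1% (362 of 951) and 37.5% (333 of 888) were members. The reference class, called resting GABAergic cells, met the same Dlx, Pdgfra and Neurod conditions with no UMI of Mki67 or Top2a and held 535 and 482 cells. A wider resting class, which could hold Pdgfra, Neurod2 or Neurod6 UMIs, had 747 and 722 cells, 19.4% and 22.3% of them with Pdgfra, and was used as an alternative. Dlx1 and Dlx2 summed to a median of 11 and 12 UMIs per member, and Mki67 and Top2a to a median of 13 and 18. At the edge of the rule, 22 and 16 members had exactly 2 UMIs of Mki67 and Top2a, and 54 and 73 cells with exactly 1 fell outside both classes. Exactly 2 Dlx UMIs were found in 26 and 19 members, and 49 and 51 dividing cells had exactly 1. These values chose the cells and are given as a description.

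The libraries held 97091962 and 108903409 UMIs, with medians of 7542.5 and 8523 UMIs per kept cell. Members were deeper than resting GABAergic cells, with median UMIs of 10067.5 and 10436 against 4899 and 5643, so shares of cells with a UMI were compared after each cell had been thinned to 2000 UMIs. At that depth the median number of detected genes was 1163 and 1179 in members and 1142 and 1154 in resting cells. The doublet caller Scrublet marked 18 (4.97%) and 20 (6.01%) members, against 7.61% and 6.26% of all cells and 3.93% and 2.70% of resting GABAergic cells. The libraries shared 62 barcodes, 40 of them among kept cells. No member shared its barcode with another member, and 2 members had a barcode that was also kept in the other library. Levels are counts of UMIs summed over the cells of a class in 1 library and scaled to the class total as CPM. They are not divided by gene length. Results compare them between classes, and between genes CPM served to choose the genes named and the promoters shown. Intervals on shares cover counting error only.

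Promoters of genes of division with high CPM are shown first, because the cells were chosen on division and the S phase and G2/M genes go with that choice. Hmgb2 is a chromatin protein that peaks in G2 and M phase, and Ube2c is the ubiquitin-conjugating enzyme of the complex that ends mitosis. Dut and Rrm2 serve nucleotide supply in S phase, as dUTPase and as a subunit of ribonucleotide reductase. They are the 2 genes of each list with the highest CPM in members, among those with a RefSeq promoter and outside a chromosome left out of the choice. Each window spans 250 bases before to 50 after the RefSeq start, on the plus strand of GRCm38.p6, 5′ to 3′: chr8:57511593-57511892 for Hmgb2, chr2:164769679-164769978 for Ube2c, chr2:125247265-125247564 for Dut and chr12:24708004-24708303 for Rrm2. Capitals mark matches on either strand to 3 motifs. The first is CCAAT, the box bound by NF-Y, which reads ATTGG on the other strand. The cell cycle homology region, CHR, was searched as TTTGAA and in its rarer form as TTCGAA. Sites of the E2F kind, the binding factors of the G1 to S transition, were searched in their classic form as TTCGCGC and in variant forms, in the forward sense, as TTGGCGC or, with more cytosines, as TTCCCGC.
Hmgb2: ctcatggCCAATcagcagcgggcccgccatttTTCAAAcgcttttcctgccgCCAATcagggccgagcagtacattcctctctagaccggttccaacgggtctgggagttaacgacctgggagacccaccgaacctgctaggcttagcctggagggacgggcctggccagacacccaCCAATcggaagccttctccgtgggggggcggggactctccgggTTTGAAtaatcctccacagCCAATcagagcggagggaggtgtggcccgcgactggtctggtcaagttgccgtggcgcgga
Ube2c: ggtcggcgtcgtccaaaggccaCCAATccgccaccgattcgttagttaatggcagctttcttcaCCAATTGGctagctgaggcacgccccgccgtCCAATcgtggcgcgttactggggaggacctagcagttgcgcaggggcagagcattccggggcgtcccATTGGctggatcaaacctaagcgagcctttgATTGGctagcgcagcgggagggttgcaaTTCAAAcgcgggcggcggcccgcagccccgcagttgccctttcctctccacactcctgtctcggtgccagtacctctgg
Dut: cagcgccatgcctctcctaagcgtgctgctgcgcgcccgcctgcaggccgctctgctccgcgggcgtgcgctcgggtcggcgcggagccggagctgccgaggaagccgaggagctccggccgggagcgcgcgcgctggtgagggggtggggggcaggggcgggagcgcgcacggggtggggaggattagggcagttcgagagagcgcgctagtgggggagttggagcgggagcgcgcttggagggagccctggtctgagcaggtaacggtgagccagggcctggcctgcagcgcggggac
Rrm2: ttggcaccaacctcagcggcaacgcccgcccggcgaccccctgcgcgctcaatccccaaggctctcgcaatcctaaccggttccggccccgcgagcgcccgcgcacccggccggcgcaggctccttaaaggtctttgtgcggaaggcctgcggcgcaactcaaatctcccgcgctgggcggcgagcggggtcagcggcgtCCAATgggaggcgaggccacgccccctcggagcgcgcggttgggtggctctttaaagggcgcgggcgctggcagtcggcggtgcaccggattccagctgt

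Hmgb2 held 4 CCAAT and 2 CHR matches, Ube2c 6 and 1, Rrm2 1 CCAAT match, and Dut none. Matches can overlap where CCAAT and ATTGG run into each other. Of all 27025 RefSeq promoters of this length, 37.9% held CCAAT, 19.4% a CHR, 8.21% an E2F-like site and 7.70% both CCAAT and a CHR. Among the 26 of 29 G2/M and mitosis genes with a window, 73.1% held CCAAT, 76.9% a CHR, 11.5% an E2F-like site and 65.4% CCAAT with a CHR. Among the 23 of 28 S phase genes, the shares were 60.9%, 17.4%, 60.9% and 13.0%. Matches are letters in a window and were not tested as binding sites.

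Members carried genes of DNA copying and of mitosis at many times the level of resting GABAergic cells. Hmgb2 was at 3965 and 3717 CPM in members against 276 and 256 in resting GABAergic cells, and Ube2c, whose exons overlap Tnnc2, at 1192 and 1066 against 40.6 and 28.8. Cdk1, the kinase that drives entry into mitosis, was at 341 and 303 against 6.83 and 7.21, and its partner Ccnb1 at 269.9 and 252 against 3.96 and 4.46. For S phase, Rrm2 was at 494 and 473 against 38.8 and 41.9, Dut at 591 and 575 against 136 and 128, and Pcna, the sliding clamp of DNA polymerase, at 343 and 325 against 106 and 93.8. In all 7 genes both member libraries lay above both resting libraries. Every one of 29 tested G2/M and mitosis genes and of 28 S phase genes was higher, with median log2 fold changes of 5.37 and 1.90. Over all genes outside the gates, 14.5% were called higher and 20.4% lower in members by edgeR's quasi-likelihood test with Benjamini-Hochberg adjusted p under 0.05, and the median was -0.13. List counts against resting cells in the full comparison are read beside these shares. Cycle genes go with the choice on Mki67 and Top2a, so their counts describe the members and support nothing.

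**Figure D1:**
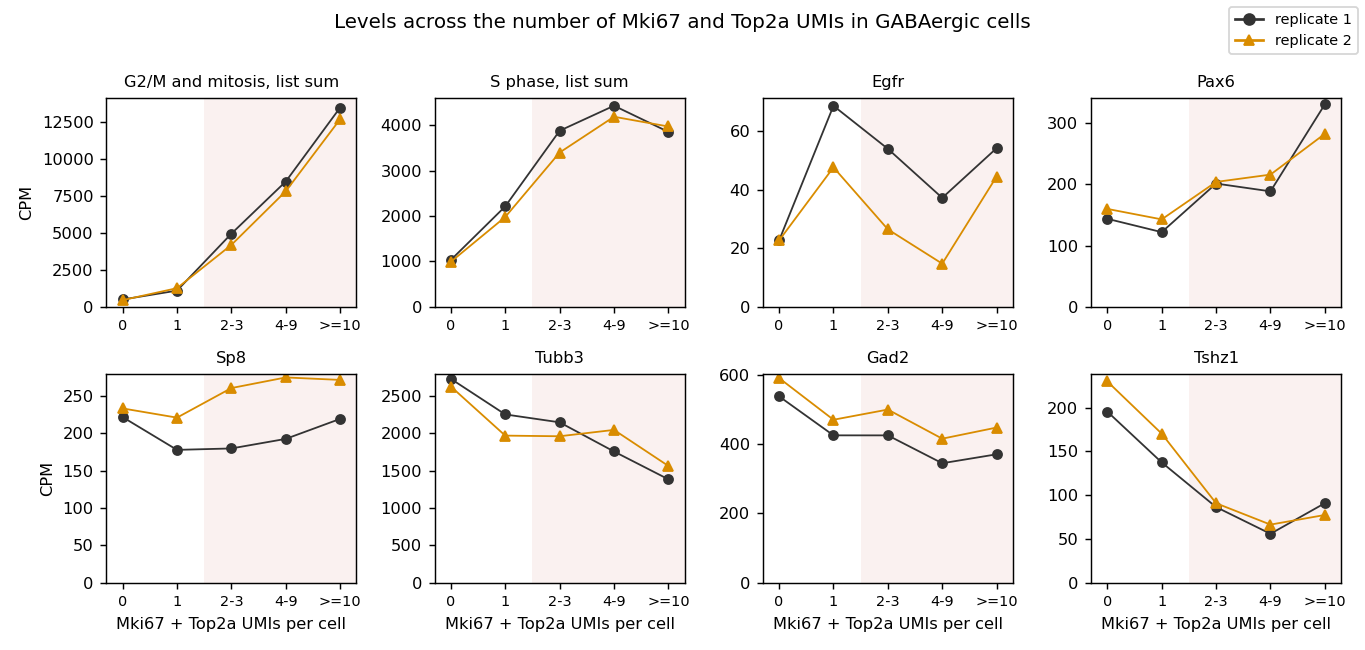
Summed or single-gene levels (CPM, y axes from 0) in Dlx-positive cells without Pdgfra, Neurod2 or Neurod6, grouped by UMIs of Mki67 and Top2a on the x axis, with 1 line per library and the groups of members shaded. The G2/M sum climbs from 495 and 452 CPM at 0 UMIs to 13493 and 12707 CPM at 10 or more, while Tubb3 falls from 2726 and 2623 to 1383 and 1561 CPM.

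Members also differed among themselves in the levels of these genes. When Dlx-positive cells were grouped by UMIs of Mki67 and Top2a (0, 1, 2 to 3, 4 to 9, and 10 or more), the summed G2/M level was 495, 1096, 4951, 8485 and 13493 CPM in replicate 1 and 452, 1262, 4192, 7827 and 12707 CPM in replicate 2. The summed S phase level was 1032, 2212, 3879, 4430 and 3853 CPM, and 992, 1979, 3398, 4187 and 3973 CPM, so its highest value was in the group with 4 to 9 UMIs in both libraries. Median depth also differed between these groups, from 4899 and 5643 UMIs at 0 to 11873.5 and 11506 at 10 or more, and its part in the pattern was not tested. Tshz1, of later neuroblasts, was at 195 and 229.8 CPM at 0 UMIs and at 90.8 and 77.3 CPM at 10 or more, whereas Egfr had no steady order between the groups, of which that with 2 to 3 UMIs held 41 and 37 cells. Cells with 1 UMI, which belong to neither class, had G2/M sums nearer to the resting cells than to any group of members.

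After thinning to 2000 UMIs, Cdk1 was found in 45.0% and 41.2% of members and in 0.875% and 1.32% of resting GABAergic cells, and Ccnb1 in 34.2% and 37.5% against 0.656% and 1.10%. Without thinning, Cdk1 was found in 81.8% and 82.6% of members. Pcna was less selective, at 40.7% and 39.1% against 18.4% and 15.2%. The genes outside the lists with the highest fold changes were again of division, led by the histone gene Hist1h3c (log2 6.50), the phosphatase regulator Cdca2 (6.24) and the spindle pole gene Aspm (6.21).

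**Figure D2:**
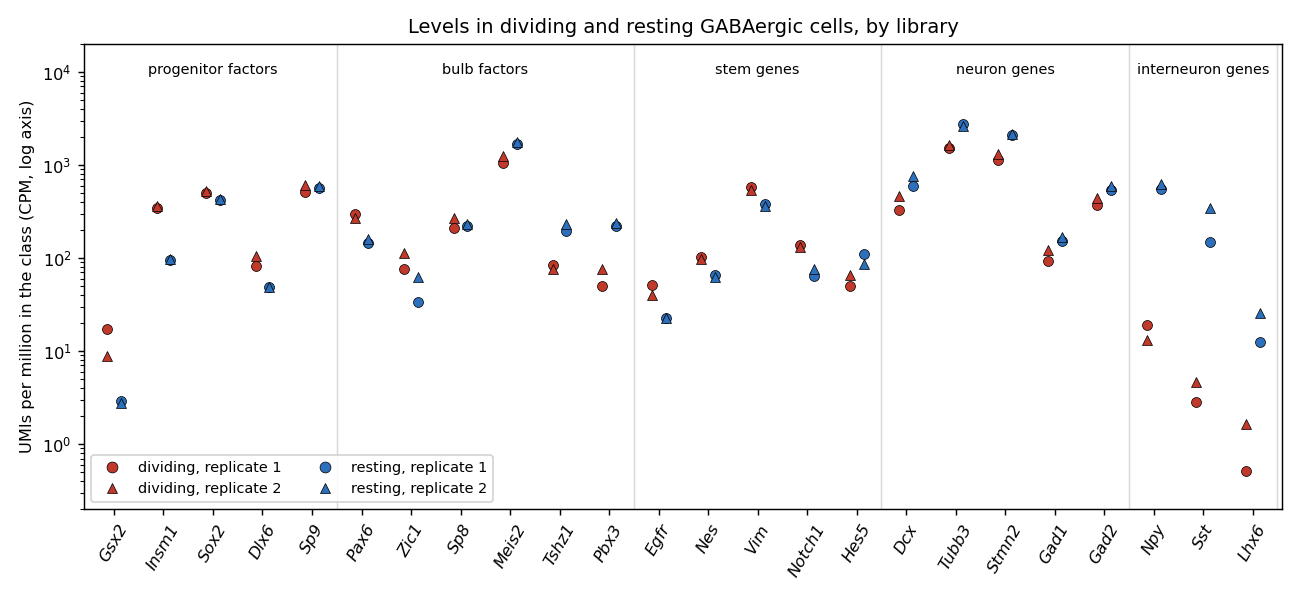
Level of each named gene (CPM, log axis) in members and in resting GABAergic cells, with 1 point per library. Insm1 and Gsx2 sit higher in both member libraries than in both resting libraries, Sp8 and Sp9 overlap, and Tubb3, Pbx3 and Sst sit lower.

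The progenitor factors Insm1 and Gsx2 were higher in members, while Dlx5 and Sp9, factors of the whole Dlx lineage, were near the level of resting cells. Insm1, a zinc finger factor of delaminating and neurogenic progenitors (mm10, chromosome 2, 146221921 to 146225020), was at 345 and 367 CPM in members against 95.3 and 98.2 in resting cells, a log2 fold change of 1.91 ± 0.08 (SE; edgeR adjusted p = 1.19e-16). Gsx2, a patterning factor of the lateral eminence, rose by 2.22 ± 0.40 on the log2 scale from a low level, at 17.1 and 8.74 against 2.88 and 2.75 CPM. Both libraries of members lay above both resting libraries for either gene.

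Of 13 tested GABAergic progenitor factors, 6 rose and 1 fell, with a median log2 fold change of 0.28. Gsx2, Gli3, Dlx6, Etv1, Sox2 and Sox11 rose and Sox4 fell. Dlx6, the neighbour and relative of Dlx5, rose by 0.96 ± 0.14, at 81.5 and 106 against 48.9 and 48.8 CPM. Dlx5 itself stood at 251 and 296 against 286 and 287 CPM (-0.04 ± 0.07, edgeR adjusted p = 0.723), and Sp9, a zinc finger factor of eminence-derived neurons, at 508 and 616 against 560.4 and 597 (-0.01 ± 0.06, edgeR adjusted p = 0.875). For both of these the libraries of the classes overlapped. The increase of Sox11 was small, 0.20 ± 0.05. With every cell that held a UMI of Sst, Npy, Lhx6 or Adarb2 left out, a check added after seeing the data, 5 rose and 2 fell, and Sox11 (log2 0.08) and Etv1 (0.06) no longer passed. Sox11 (0.13) also missed the threshold without member replicate 2. Exons of Gli3, Sp9, Zic1 and several genes below (Notch1, Hes5, Ccnd1, Ccnd2, Cdk4, Cdk6, Cdkn1c, Gas1, Slc32a1, Nr2f2, Prox1 and Prom1) overlap another counted gene, so their counts are less certain.

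By cell, Sp8, a factor of CGE-derived and bulb-bound cells, was found in 35.0% and 41.2% of members thinned to 2000 UMIs, 36.5% and 34.1% of resting GABAergic cells and 0.855% and 0.531% of resting glutamatergic cells, a class that should lack it. Those glutamatergic cells had median depths of 6095 and 6923 UMIs before thinning. Sp9 was more frequent than Sp8, at 61.3% and 68.6% of members and 62.6% and 63.7% of resting GABAergic cells.

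Transcription factors of olfactory bulb neuroblasts split by gene. Pax6, needed for the dopaminergic neurons of the bulb and also made by radial glia, rose from 144 and 160.0 CPM in resting cells to 295 and 269.7 in members (0.92 ± 0.09, edgeR adjusted p = 6.35e-09). Zic1, at 76.1 and 113 against 33.8 and 62.2 CPM, and Sall3, at 93.7 and 77.3 against 48.2 and 48.1, rose as well. Sp8 stood at 212 and 271 against 222 and 234 CPM (0.11 ± 0.06, edgeR adjusted p = 0.201), and its libraries overlapped.

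The other members of that list that moved were lower: 9 of 15 fell, among them the factors of later neuroblasts. Meis2 fell from 1675 and 1766 to 1053 and 1242 CPM (-0.55 ± 0.06). Tshz1 fell from 195 and 229.8 to 83.8 and 77.1 (-1.36 ± 0.10) and Pbx3 from 220.5 and 238 to 50.7 and 75.7 (-1.84 ± 0.10). The largest change in the list was that of Prokr2, the prokineticin receptor that neuroblasts need to reach the bulb, at 4.84 and 8.47 against 63.3 and 58.0 CPM (-3.16 ± 0.24). Members and resting libraries did not overlap for any of these 4 genes. Without the cells with Sst, Npy, Lhx6 or Adarb2, 7 of 15 fell and 3 rose, and Pax6 (log2 0.59), Meis2 (-0.69), Tshz1 (-0.85) and Pbx3 (-1.27) still passed.

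Stem cell and radial glia genes were mixed, with 8 of 19 higher and 4 lower (median 0.24). Egfr, the growth factor receptor of activated stem cells and transit-amplifying cells, was at 50.9 and 39.9 CPM in members against 22.7 and 22.7 in resting cells (1.04 ± 0.16, edgeR adjusted p = 1.14e-05). Nes and Vim, intermediate filaments of progenitors, rose by 0.68 ± 0.10 and 0.62 ± 0.05. Prom1, Pax6, Notch1, Sox9 and Sox1 also rose. The genes that fell were Fabp7, a lipid carrier, at 2071 and 2007 against 3206 and 2603 CPM, the glutamate transporter Slc1a3, the phosphatase Ptprz1, and Hes5. Genes of radial glia did not all move 1 way, since Pax6, which radial glia also make, rose. Egfr (log2 0.71) and Prom1 (1.42) did not pass when cells were gated after thinning to 2000 UMIs, Prom1 (0.61) also not without member replicate 2 and Sox9 (0.05) not against the wider resting class. Slc1a3 (-0.24) lost its call under 7 of 12 alternatives, with values from -0.24 to -0.14: RLE, DESeq2, no replicate block, gates after thinning, the wider resting class, the GABAergic sums alone, and without member replicate 1.

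In the Notch pathway, in which ligands on 1 cell hold its neighbours in the progenitor state, 5 of 20 genes rose and 4 fell. Over all genes 14.5% rose and 20.4% fell, and each list of this paragraph is read beside those shares. The ligand Dll1 was at 37.7 and 25.4 CPM against 17.3 and 19.2 (0.82 ± 0.20, edgeR adjusted p = 0.00226), and the receptor Notch1 at 139.5 and 130.1 against 64.7 and 75.6 (0.98 ± 0.10, edgeR adjusted p = 3.13e-08). Dll3, Jag1 and Hes6 rose by less or from low levels, with Hes6, a repressor of Hes1, at 268 and 167 against 166 and 163, so that its increase rests mainly on replicate 1. Hes5, the effector that Notch signalling switches on, fell from 112 and 86.9 to 50.4 and 65.3 CPM (-0.75 ± 0.13, edgeR adjusted p = 3.92e-05). Leaving out member replicate 1 ended the calls of Hes6, Dll1, Dll3 and Jag1, with log2 values of 0.07, 0.52, 0.26 and 0.92. Jag1 also lost its call without member replicate 2 (1.03), with Scrublet-marked barcodes removed (0.90) and with no replicate block (0.98), and Dll3 with the interneuron-gene cells left out (0.50) and with no replicate block (0.45). None of the 4 passed when cells were gated after thinning (0.08, 0.92, 0.55 and 0.83). Against the wider resting class neither Dll1 (0.40) nor Dll3 passed, and Dll3 changed sign (-0.30). No gene of the Id and BMP list rose, where 14.5% of all genes rose and 20.4% fell. Id2, Id3 and Id4, inhibitors of proneural factors, fell, with log2 values from -0.80 to -0.39. Id2 (-0.40) did not pass with gates after thinning. In the Wnt and Shh list 4 of 18 rose and 1 fell, with Gas1, a co-receptor for Shh, at 129 and 85.0 against 50.4 and 37.4 CPM (1.33 ± 0.18).

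Members carried neuronal transcripts at lower levels than resting cells did. Of 20 genes of immature and migrating neurons, 17 fell and 2 rose, with a median log2 fold change of -0.64. Tubb3, the neuronal tubulin, fell from 2726 and 2623 to 1508 and 1644 CPM (-0.73 ± 0.05, edgeR adjusted p = 5.36e-12), and Dcx, the microtubule protein of migrating neuroblasts, from 597 and 765 to 329 and 463 (-0.76 ± 0.06, edgeR adjusted p = 5.15e-11). The libraries did not overlap for either. The genes that rose were Stmn1 (0.43 ± 0.04), a microtubule destabiliser of dividing and young cells, and the RNA-binding gene Elavl4 (0.38 ± 0.07). With cells holding Sst, Npy, Lhx6 or Adarb2 left out, 16 fell and 2 rose.

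Genes of GABA synthesis, transport and reception were lower as well, with 10 of 12 lower and none higher (median -0.84). Gad2, an enzyme that makes GABA, was at 369 and 447 CPM against 537 and 589.7 (-0.44 ± 0.05, edgeR adjusted p = 3.67e-07), Gad1 at 92.4 and 121 against 153 and 170.3, and the vesicular transporter Slc32a1 at 28.0 and 30.9 against 66.2 and 81.1 (-1.29 ± 0.15, edgeR adjusted p = 1.16e-07). Against the wider resting class Gad2 (-0.07) and Gad1 (-0.14) did not pass. Lower does not mean absent here. Thinned to 2000 UMIs, 49.6% and 57.8% of members held a Gad2 UMI, against 62.8% and 62.2% of resting GABAergic cells and 3.13% and 2.39% of resting glutamatergic cells. Without thinning, 82.3% and 86.5% of members held one. Dcx was found in 49.9% and 56.6% of thinned members, 64.1% and 72.3% of resting GABAergic cells and 4.55% and 5.64% of resting astroglial cells, which should lack it and had median depths of 7431 and 8153.5 UMIs. In the 327 and 301 members with at least 5000 UMIs, thinned to that number, 56.9% and 69.8% held UMIs of both Dcx and Gad2. Most of these members thus held both genes at that depth, and such shares depend on depth.

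**Figure D3:**
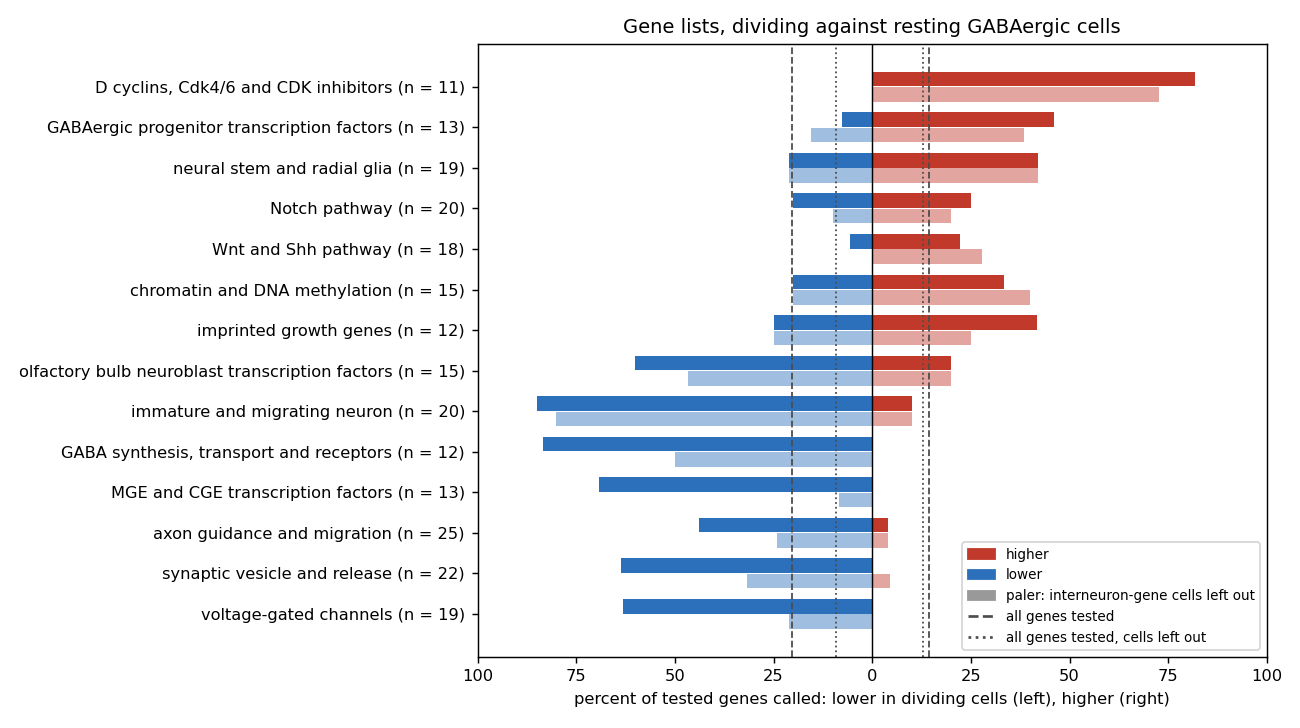
Percent of the tested genes of each list (rows) that were called higher (right, red) or lower (left, blue) in members than in resting GABAergic cells, with paler bars for the comparison without cells holding Sst, Npy, Lhx6 or Adarb2. The dashed lines are the shares over all genes in the full comparison, 14.5% higher and 20.4% lower, and the dotted lines those without these cells, 12.9% and 9.06%. The bar for MGE and CGE factors shrinks from 9 of 13 genes lower to 1 of 12, which goes with the choice of the cells left out.

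Resting GABAergic cells had interneuron genes at higher levels than members. The peptide Sst, of MGE-derived interneurons, stood at 2.80 and 4.65 CPM in members against 148 and 345 in resting cells, and Npy at 18.8 and 13.1 against 551 and 619. Lhx6, the MGE factor, stood at 0.509 and 1.64 against 12.6 and 25.8, and Adarb2, of CGE-derived interneurons, at 36.7 and 55.5 against 233 and 226. All 4 fell by edgeR, with log2 values of -5.98, -5.15, -4.11 and -2.29. A UMI of any of the 4 was found in 38.4% and 43.5% of members and in 51.4% and 51.9% of resting cells, at their own depths. Of 13 factors of the MGE and CGE, 9 fell and none rose (median -0.56), and with those cells left out 1 of 12 fell. Sst, Lhx6 and Adarb2 are genes of these lineages and helped to choose the cells left out. That drop in calls therefore goes with the choice and supports nothing. Over all genes, leaving these cells out changed the shares called from 14.5% to 12.9% higher and from 20.4% to 9.06% lower, so list counts without them are read against the latter. The part of interneuron genes in the neuronal lists was not tested otherwise.

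Genes of mature function were lower in the full comparison. Fewer of them passed without those cells, as over all genes, of which 20.4% were lower in the full comparison and 9.06% without those cells. Of 19 voltage-gated channels 12 fell (median -1.06), and 4 of 19 with the cells left out. Of 22 genes of synaptic vesicles and release 14 fell, against 7 and 1 higher with the cells left out, and Syt1, the calcium sensor of release, was at 8.91 and 11.2 against 55.8 and 58.4 CPM. Of 25 genes of axon guidance and migration 11 fell and 1 rose, against 6 and 1. The gene that rose was Dcc, the netrin receptor, at 50.7 and 63.1 against 27.0 and 29.2 CPM (1.05 ± 0.12, edgeR adjusted p = 1.94e-07). Among 13 growth factor receptors Egfr rose and 5 fell, with Erbb4, the neuregulin receptor of migrating neuroblasts and interneurons, at 16.0 and 25.4 against 102 and 103 CPM (-2.28 ± 0.14, and -1.22 with the cells left out). Chl1, Gabra2 and Nr2f2 no longer passed in that comparison, with log2 values of -0.55, -0.43 and -0.98. Sums over cells do not separate fewer cells with a gene from less RNA per cell, and shares of cells are not given for the genes of this paragraph.

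Activators and inhibitors of the cycle were both higher. Of 11 tested genes among D cyclins, Cdk4, Cdk6 and CDK inhibitors, 9 rose and none fell (median 0.78), where 14.5% of all genes rose. Such cycle genes go with the choice on Mki67 and Top2a, so these values describe the members and support nothing. Ccnd2, the D cyclin of the subventricular zone, was at 2739.9 and 2987 CPM against 1974 and 2149 (0.51 ± 0.05), Ccnd1 at 73.8 and 56.6 against 42.8 and 42.6 (0.65 ± 0.14), and Cdk6, their kinase partner, at 109 and 97.5 against 37.0 and 38.8 (1.48 ± 0.12, edgeR adjusted p = 9.14e-11).

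The inhibitors Cdkn2c and Cdkn2d, which bind Cdk4 and Cdk6, stood at 98.8 and 102 against 12.9 and 8.59 CPM and at 140.0 and 133 against 29.9 and 31.3. Cdkn1a, the inhibitor under p53, was at 50.7 and 64.5 against 18.3 and 17.2, Cdkn1b, an inhibitor of cells that leave the cycle, at 249 and 260.1 against 173 and 170.0, and the imprinted inhibitor Cdkn1c at 78.7 and 93.4 against 47.5 and 54.6. All 5 inhibitors passed edgeR's test, with log2 fold changes of 3.26 ± 0.14, 2.19 ± 0.10, 1.72 ± 0.18, 0.60 ± 0.07 and 0.78 ± 0.18, and in each the member libraries lay above the resting ones. Cdkn1c no longer passed with the interneuron-gene cells left out (log2 0.49). The gain of Ccnd2 was 0.17 in that comparison. Ccnd1 was lower in members than in the wider resting class (-0.50), and it did not pass without member replicate 1 (0.40) or with gates after thinning (0.81).

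A few chromatin genes were higher, and the part of the choice on Mki67 and Top2a in this was not tested. Of 15 genes of chromatin and DNA methylation, 5 rose and 3 fell (median 0.06): the maintenance methyltransferase Dnmt1 was at 198 and 192 against 81.3 and 74.5 CPM (1.35 ± 0.09), and Ezh2 and Suz12, subunits of the repressive Polycomb complex, rose by 1.34 ± 0.06 and 1.47 ± 0.08. Of 12 imprinted growth genes 5 rose and 3 fell. Grb10, which damps insulin signalling, was at 45.6 and 46.2 against 17.6 and 21.0 CPM (1.28 ± 0.15), and the noncoding RNA Meg3 at 313 and 422 against 1838 and 1892 (-2.32 ± 0.11).

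The remaining lists held mixed or fewer calls. Of 15 immediate early and stress genes, which respond to dissociation, 8 fell and 2 rose. Of 18 cholesterol synthesis genes 7 fell and none rose, of 21 nuclear respiratory chain genes 6 fell and 2 rose, and of 18 glycolysis genes 6 fell and 5 rose. In the p53 and apoptosis list 1 of 11 rose and 1 fell. With size factors by RLE, which moved the median of all genes from -0.13 to -0.06, the called genes split 51.6% higher, against 41.5% with TMM, and 53.4% with DESeq2. The list counts under RLE stayed within 2 genes of those above in each direction. With gates set after thinning, which leaves fewer cells and UMIs, 8.82% of all genes were called higher and 6.41% lower. There 5 of 11 GABAergic progenitor factors rose and 1 fell, 16 of 20 genes of immature neurons and 6 of 11 GABA genes fell, and 3 of 14 bulb factors rose and 7 fell. Fewer calls than in the full comparison, as over all genes, were found for synaptic release (3 of 21 lower), channels (5 of 17 lower), MGE and CGE factors (3 of 11 lower), guidance (3 of 23 higher and 4 lower) and the Notch pathway (1 of 17 higher and 2 lower).

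Members also varied in Dcx, which the rule did not use, and other genes varied with it. Members with at least 5000 UMIs were thinned to 5000 and divided by whether they held a Dcx UMI, 220 with and 107 without in replicate 1, and 244 with and 57 without in replicate 2. This comparison of cells inside a library was chosen after values had been seen and is a description with no test. With Dcx against without it, Gad2 was found in 84.5% against 47.7% and 86.1% against 42.1% of cells in the libraries, Dlx5 in 75.5% against 36.4% and 80.7% against 40.4%, and Sp8 in 75.5% against 33.6% and 75.8% against 31.6%. Sp9 had the same order, at 90.0% against 51.4% and 95.1% against 52.6%, and so had Igfbpl1, a gene of young neurons, at 91.8% against 63.6% and 97.1% against 59.6%, and the presynaptic adhesion gene Nrxn3, at 91.4% against 51.4% and 92.6% against 57.9%. All 6 of these genes were found more often in the members with Dcx in both libraries.

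Some genes of earlier progenitors had the opposite order. Egfr was found in 7.73% against 28.0% and 6.56% against 28.1%, Dll1 in 8.18% against 18.7% and 6.97% against 21.1%, Dll3 in 8.64% against 18.7% and 9.02% against 24.6% and Ccnd1 in 8.18% against 24.3% and 8.20% against 38.6%. Hes6, at 44.1% against 65.4% and 43.4% against 57.9%, and Slc1a3, the glutamate transporter of radial glia and astrocytes, at 41.4% against 59.8% and 36.5% against 70.2%, were also more frequent in the members without Dcx. Olig2, at 13.6% against 38.3% and 11.1% against 24.6%, had the same order. Other progenitor genes did not: Prom1, at 9.09% against 4.67% and 11.5% against 5.26%, and Pax6, at 65.9% against 57.9% and 66.0% against 50.9%, were more frequent with Dcx, and Sox2, at 85.5% against 88.8% and 89.8% against 80.7%, changed order between the libraries. Insm1 was found in 72.3% against 66.4% and 73.0% against 64.9%. Ccnb1 was at 56.4% against 54.2% and 54.5% against 38.6%, so its shares were close in replicate 1 and apart in replicate 2. The S phase genes Pcna and Mcm2 were more frequent without Dcx. Pcna was at 62.7% against 75.7% and 58.2% against 75.4%, and Mcm2 at 22.3% against 28.0% and 18.9% against 35.1%. The part of cycle phase in this split was not tested. Egfr and Dcx occurred together in 5.20% and 5.32% of members, while the product of their single shares was 9.67% and 8.62%.

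**Figure D4:**
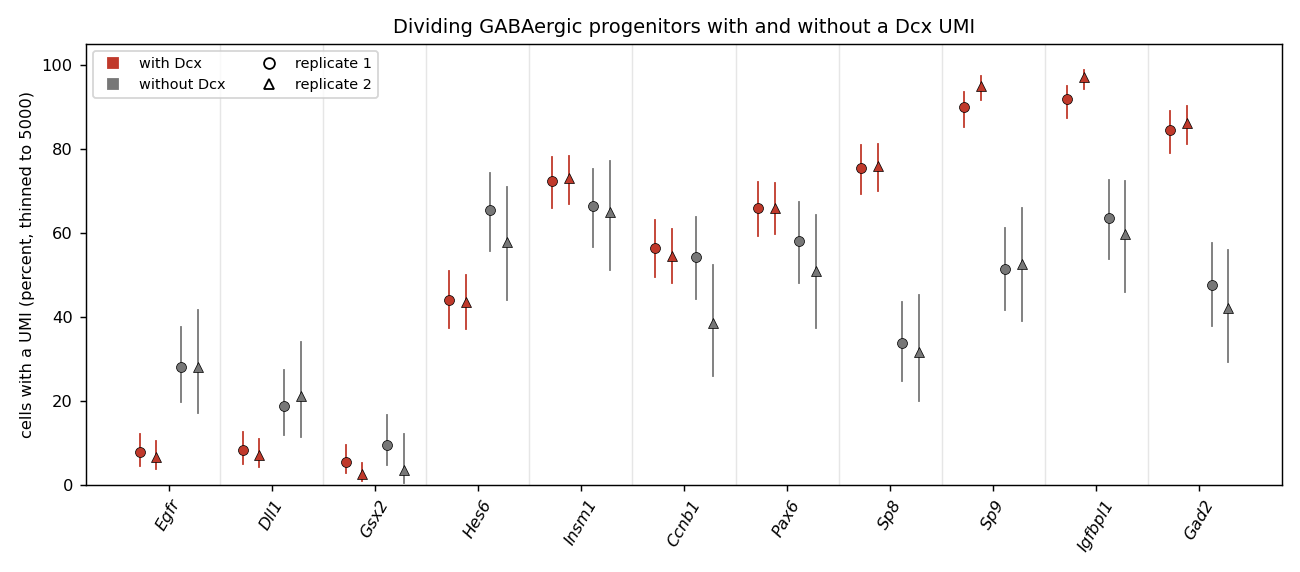
Share of members (percent, thinned to 5000 UMIs) that held a UMI of each gene, for members with and without a Dcx UMI, per library, with exact 95% intervals. Sp8, Sp9, Igfbpl1 and Gad2 are more frequent with Dcx, and Egfr and Dll1 more frequent without it.

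Markers of other cell types were low but not all absent in members. The 7 OPC markers summed to 333 and 273 CPM in members and 379 and 299 in resting GABAergic cells, against 4029 and 4014 in dividing OPCs, with no marker at 0. The 6 astroglia markers summed to 459 and 521 CPM, against 624 and 586 in resting GABAergic cells and 2607 and 3005 in dividing astroglial cells. Glutamatergic markers summed to 6.37 and 6.01 CPM, intermediate progenitor markers to 70.3 and 56.6 with Neurog1 at 0, and Cajal-Retzius markers to 2.80 and 24.0. Microglia markers summed to 65.7 and 13.1 CPM in members and 227 and 120 in resting cells, endothelial markers to 0.509 and 1.37 with Kdr and Ly6c1 at 0, and all 4 red cell markers were at 0. Oligodendrocyte markers summed to 91.9 and 81.2 CPM with Mog and Opalin at 0, mural and fibroblast markers to 3.82 and 3.55, ependymal markers to 2.29 and 3.01 with Tmem212 at 0, and striatal projection neuron markers to 103 and 93.4 with Drd1 at 0. Olig1 was found in 21.7% and 17.2% of thinned members, and in 21.4% and 18.6% of resting glutamatergic cells. Whether its UMIs in members were background was not tested. The part of these transcripts in the results was not tested.

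Members were then set beside the dividing cells of the glial lineages in the same libraries, 570 and 671 dividing OPCs and 257 and 236 dividing astroglial cells, chosen by at least 2 UMIs of Pdgfra, or of Aldoc and Aqp4 summed, with no UMI of Dlx1, Dlx2 or the other lineages' genes and the same cut on Mki67 and Top2a. Members had more of these UMIs, with medians of 13 and 18 against 7 and 8 in OPCs and 6 and 6 in astroglia, so cycle genes of G2 and M phase go with that difference. Of all genes, 28.3% were higher and 31.3% lower in members than in dividing OPCs, and 28% higher and 29% lower than in dividing astroglial cells, by edgeR. Dlx6os1, the noncoding RNA of the Dlx5 and Dlx6 locus, was at 354 and 459 CPM in members against 2.19 and 2.86 in dividing OPCs. It goes with the choice on Dlx1 and Dlx2. Tiam2, an activator of Rac, was at 242 and 327 against 4.65 and 5.82 in OPCs and 3.62 and 6.62 in astroglia, and Insm1 at 345 and 367 against 8.0 and 8.28 and 14.8 and 9.5. Neither lineage of glia reached the members' lower library in these genes.

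Among the genes lower in members by the named-gene rule were Pcdh15 (log2 -5.65 ± 0.15 against OPCs), Lhfpl3 (-5.13 ± 0.09) and Cntn1 (-4.88 ± 0.10), or Htra1 (-3.86 ± 0.16 against astroglia) and the glutamate receptor Grm3 (-3.41 ± 0.17). Genes of the glial lineages go with the choice on Pdgfra, or on Aldoc and Aqp4. The largest decreases against astroglia by that rule were those of the myeloid genes S100a9 (-8.89) and Lyz2 (-6.66) and of Spp1 (-5.98). These stood at 0.557 and 295, 16.7 and 175, and 3.07 and 231 CPM in dividing astroglia, so they were high in replicate 2 of that class. The 7 microglia markers summed to 525 and 296 CPM there, and the part of such transcripts was not tested. Of the 15 chromatin genes 13 were higher in members than in dividing OPCs and 11 higher than in dividing astroglia, with none lower. Of the 19 stem and radial glia genes 17 were lower than in dividing astroglia and 2 higher. Genes that astroglia share with this list go with the choice on Aldoc and Aqp4, so this count describes the classes and supports nothing.

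Whether division goes with the same changes in each lineage was tested as an interaction, the log2 difference of dividing over resting cells in the GABAergic lineage minus that in the glial lineage. Against OPCs, 4.94% of genes had a greater and 8.7% a smaller difference in the GABAergic lineage, and against astroglia 3.6% and 8.9%. Insm1 rose with division by 2.09 ± 0.17 more in the GABAergic lineage than in OPCs (edgeR adjusted p = 1.97e-09), with dividing and resting OPCs at 8.0 and 8.28 and 8.75 and 9.47 CPM. In astroglia Insm1 was at 14.8 and 9.5 CPM in dividing and 5.22 and 7.58 in resting cells. Cdk6 differed by 1.60 ± 0.13, at 69.1 and 83.7 CPM in dividing and 77.3 and 87.0 in resting OPCs. Resting OPCs thus had Insm1 and Cdk6 at about the level of dividing ones.

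**Figure D5:**
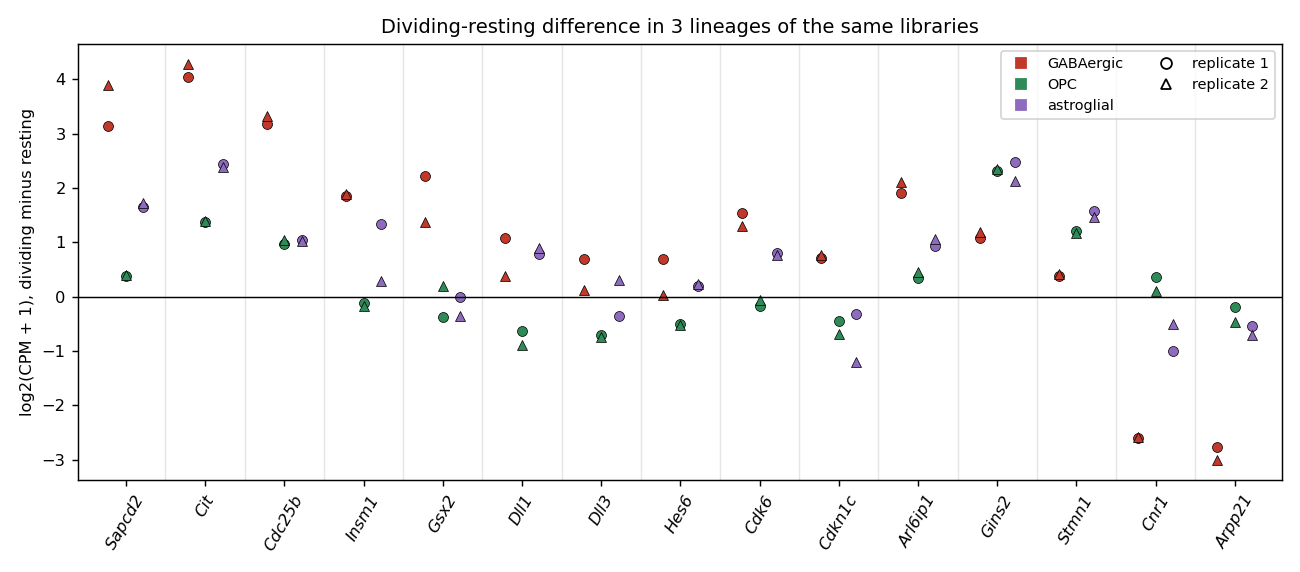
Log2 difference of dividing over resting cells (CPM with a pseudocount of 1) for named genes in the GABAergic, OPC and astroglial lineages, with 1 point per library. Insm1 and Cdk6 are above 0 in both GABAergic libraries and near 0 in OPCs, and Gins2 is higher in OPCs.

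Sapcd2, a regulator of spindle orientation (mm10, chromosome 2, 25372321 to 25378213), had the largest greater difference against OPCs among genes outside the lists, 3.26 ± 0.17. It stood at 112 and 101 CPM in members and 11.9 and 5.84 in resting GABAergic cells, against 250.3 and 238 in dividing and 193 and 179 in resting OPCs. Cit, the citron kinase of cytokinesis (chromosome 5, 115845278 to 116008947), differed by 3.05 ± 0.22, at 92.2 and 119 against 4.68 and 5.15 CPM in the GABAergic lineage and 68.2 and 75.7 against 25.7 and 28.1 in OPCs. Resting OPCs held Sapcd2 above the level of members. The ligands Dll1 (1.62 ± 0.22) and Dll3 (1.20 ± 0.17) had greater differences as well, though neither passed with gates after thinning (1.57 and 1.36), nor did Gins2 (-1.07). In OPCs both ligands were lower in dividing cells, Dll1 at 32.1 and 26.1 against 50.2 and 49.2 CPM and Dll3 at 70.2 and 69.0 against 114 and 116. In astroglia Dll1 was higher in dividing cells, at 13.4 and 18.7 against 7.34 and 9.63. In the GABAergic lineage Dll3 was at 35.4 and 28.4 against 21.6 and 26.1. For S phase the order turned: 8 of 28 genes had a smaller and 2 a greater difference than in OPCs (4 and none with gates after thinning), with Gins2, a replication helicase subunit whose exons overlap Gse1, at 43.0 and 38.3 against 19.8 and 16.1 CPM in the GABAergic lineage and 78.3 and 66.7 against 15.0 and 12.2 in OPCs.

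Of the 29 G2/M genes, 16 had a greater difference than in OPCs and none a smaller one, but 5 did with the interneuron-gene cells left out and 1 when the classes were gated after thinning to 2000 UMIs. Over all genes, 3.2% had a greater and 3.05% a smaller difference without those cells, and 1.13% and 0.891% with gates after thinning. Against astroglia the genes with the largest greater differences were Spag5 (2.92 ± 0.28), Cdc25b (2.32 ± 0.23) and Diaph3 (2.04 ± 0.29), of the spindle, of mitotic entry and of cytokinesis. Cdc25b (1.85) and Diaph3 (1.56) did not pass with gates after thinning. The count against astroglia depended on the scaling: 28.8% of called genes had a greater difference with TMM and 62.6% with RLE, which moved the median of all genes from -0.11 to 0.06. Against OPCs the shares were 36.2% and 51.3%. Smaller differences were found for interneuron genes, with Sst at -5.60 ± 0.52 and Npy at -4.74 ± 0.29 against OPCs. Spp1 (-7.51), a gene of secreted osteopontin, stood apart in resting replicate 2, at 2.29 and 0.546 CPM in members and 2.52 and 192 in resting cells, and did not pass without member replicate 2 (-4.33).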

How the data were processed

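Single-cell libraries of 1 group were analysed, replicates 1 and 2. The authors deposited filtered matrices of unnormalized UMI counts, written by Cell Ranger 6.0.2 per the file headers. Besides, mm10, R 4.1.0 and Seurat 4.1.0 stand in the submitters' processing notes, without a stated use. The gene annotation's release was not given in the sources at hand. Positions are mm10 from the annotation supplied with the reference, which also gave the genes whose exons overlap.

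Of 13858 and 14513 barcodes, those with fewer than 500 genes (441 and 657) and then those over 10% mitochondrial UMIs (2189 and 2891) were removed, which left 11228 and 10965. The files do not map barcodes to cell types, so classes are gates on UMIs, as given in the text. Doublets marked by Scrublet (scanpy 1.11.5, expected rate 10%) were kept and removed as an alternative. Counts were added up within each library for 7 classes, which gave 14 sums, and tested in edgeR 4.0.16 (R 4.3.3), with its quasi-likelihood test, TMM, filterByExpr, the library as a block and Benjamini-Hochberg adjustment at 0.05 over 13882 genes, with 6 residual degrees of freedom. Genes of the gates were left out of counts of called genes. SEs are log2 fold changes divided by the square root of F. The block was used because all classes of a library were sorted together. Deviations of the classes correlated within a library by -0.015 to 0.305 over 21 pairs of classes (median 0.107, across genes). The scripts were tested on simulated counts. Python 3.11.15, numpy 2.4.6, scipy 1.17.1, pandas 2.3.3, matplotlib 3.10.9 and DESeq2 1.42.0 were also used.

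Members, gene lists and alternatives were chosen with earlier results of these data known. Named genes are list members and, outside the lists, the 10 highest and 10 lowest log2 fold changes of each test among called genes with the same direction in both libraries and at least 50 CPM in a compared class, with gate, sex-linked, hemoglobin, ribosomal protein and mitochondrial genes left out. Igfbpl1 and the 4 interneuron genes of the added alternative were chosen after values had been seen. Some genes are not reported here and were left out of the list counts. Promoters are RefSeq windows on GRCm38.p6. Exact intervals are Clopper-Pearson at 95%.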

Additional observations from a re-analysis of the deposited data

Results flagged for a closer look

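Results are listed here because the difference between dividing and resting cells was itself different in the GABAergic lineage and in a glial lineage, by edgeR's interaction test with an adjusted p under 0.05. Against OPCs 685 genes had a greater and 1207 a smaller difference in the GABAergic lineage, and against astroglial cells 500 and 1234. Values are log2 differences of differences, and each named gene had the same direction in both libraries. Many of these calls depended on the gates. With gates after thinning, 13 of 27 named genes kept their call against OPCs, 12 lost it with the same sign and 2 lost it with a change of sign. Against astroglial cells 6 of 19 kept it, 12 lost it with the same sign and 1 with a change of sign. Spp1 was at 2.52 and 192 CPM in the resting GABAergic libraries and at 3.07 and 231 CPM in those of dividing astroglia, so replicate 2 stood apart in both. Its difference against OPCs did not pass without member replicate 2 (-4.33) or with the interneuron-gene cells left out (-1.39), nor with no replicate block (-7.67) or DESeq2 (-6.88), and that against astroglial cells did not pass with those cells left out (-3.03).

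Progenitor genes with a greater difference than in OPCs were Gsx2 (2.30), Insm1 (2.09), the Notch ligands Dll1 (1.62) and Dll3 (1.20) and the repressor Hes6 (0.97). Of cycle control, Cdk6 (1.60) and Cdkn1c (1.39) differed the same way. Genes of mitosis and cytokinesis with a greater difference were Sapcd2 (3.26), Cit (3.05), Cdc25b (2.41), Diaph3 (2.29), Kifc1 (1.93), Ccnf (1.93), Aspm (1.89), Foxm1 (1.70) and Arl6ip1 (1.67). Members held more Mki67 and Top2a UMIs than dividing OPCs, and the part of this in these values was not tested. Smaller differences than in OPCs were found for the replication genes Gins2 (-1.19) and Cdc6 (-1.12), for Stmn1 (-0.75), for Spp1 (-7.51), and for neuronal genes: Sst (-5.60), Npy (-4.74), Cnr1 (-2.90), Syt6 (-2.78), Arpp21 (-2.64), Synpr (-2.53), Adarb2 (-2.53), Shank1 (-2.52) and Chl1 (-2.29). With gates after thinning, Cdc25b (1.43), Diaph3 (1.24), Aspm (0.66), Foxm1 (2.90), Dll1 (1.57), Dll3 (1.36), Hes6 (0.83), Gins2 (-1.07), Cdc6 (-1.58), Cnr1 (-1.41), Syt6 (-2.26) and Synpr (-3.32) did not pass. Kifc1 (-0.15) and Ccnf (-0.24) did not pass there either and changed sign. With the interneuron-gene cells left out, Kifc1 (1.12), Ccnf (2.43), Foxm1 (1.13) and Chl1 (-0.61) did not pass. Cdc6 also lost its call with no replicate block (-1.12), without member replicate 1 (-0.96) and with DESeq2 (-1.05).

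Against astroglial cells, the greater differences were those of Spag5 (2.92), Cdc25b (2.32), Diaph3 (2.04), Nde1 (1.93), Cit (1.85), Gadd45g (1.82), Sapcd2 (1.82), Rdm1 (1.78), Kif18a (1.66) and the corepressor Tle1 (1.62). The smaller ones were those of Spp1 (-9.19), Sst (-5.62), Arpp21 (-2.40), Npy (-2.34), Mef2c (-2.29), Syt6 (-2.28), Dpf1 (-2.06), B230334C09Rik (-2.02), Cnr1 (-1.95) and Chl1 (-1.86). With gates after thinning, Cdc25b (1.85), Diaph3 (1.56), Cit (0.58), Sapcd2 (1.05), Rdm1 (1.64), Sst (-3.61), Arpp21 (-0.20), Npy (-0.59), Mef2c (-0.54), B230334C09Rik (-1.02), Cnr1 (-2.16) and Chl1 (-1.46) did not pass. Syt6 (2.08) did not pass there either and changed sign. With the interneuron-gene cells left out, Syt6 (-2.04), Cnr1 (-0.61) and Chl1 (-0.18) did not pass. Both interactions share the GABAergic sums and are not independent.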

How the results depend on the processing

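The mean share of members, 3.13%, was 2.48% with gates set after thinning, 2.78% with at least 4 UMIs of Mki67 and Top2a, 2.78% with at least 4 of Dlx1 and Dlx2, and 3.76% with at most 5% mitochondrial UMIs. The mean share of thinned members with Sp8 was 22.5% at 1000 UMIs, 64.6% at 5000 and 77.0% without thinning. With gates after thinning, which leave fewer cells and UMIs, the genes called higher and lower were 940 and 683 against resting cells, 1788 and 1788 against dividing OPCs, 1370 and 969 against dividing astroglial cells, and 120 and 95, and 160 and 16, for the interactions with OPCs and astroglia. Of the 1623 calls against resting cells, 1527 were shared with those reported. DESeq2 called 1801 genes lower against resting cells, and 690 and 421 for the interactions. Without cells holding Sst, Npy, Lhx6 or Adarb2, an alternative chosen after seeing the data, 1262 were lower against resting cells (58.7% of calls were then higher), and the interactions had 445 and 425, and 313 and 477. Without the filter on low counts 1322 were higher for OPCs, and 1874 and 385 for astroglia. With RLE the astroglial counts were 914 and 545.

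With no replicate block, the interactions had 272 and 656 genes for OPCs, and 251 and 437 for astroglia, and the comparison with resting cells 1711 and 2284. Sox11, Prox1, Slc1a3, Dll3 and Jag1 then lost their call. Leaving out 1 member library gave 1592 to 1819 genes higher and 1915 to 2168 lower against resting cells, 451 to 647 and 759 to 973 for the OPC interaction, and 390 to 396 and 901 to 931 for the astroglial one. A lone library is assumed there to vary like the other classes.

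Of 1669 values of named genes under alternatives, 1571 kept their call, 93 lost it with the same sign and 5 changed sign. The losses gathered in the interactions with gates after thinning, where 13 of 27 genes for OPCs and 6 of 19 for astroglia kept their call, against 55 of 68 in the comparison with resting cells. Dll3 (-0.30) and Ccnd1 (-0.50) changed sign against the wider resting class, and Kifc1 (-0.15), Ccnf (-0.24) and, against astroglia, Syt6 (2.08) with gates after thinning. Of these, only Ccnd1 passed in the opposite direction, and the others lost their call. The cause was not tested.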

Other observations

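Cells with both Dlx and division genes that carried Pdgfra were outside the rule, 178 of 597 in replicate 1 and 216 of 613 in replicate 2. Those without Neurod2 and Neurod6 UMIs are described here, 74 and 85 with 1 Pdgfra UMI and 70 and 84 with at least 2. With 1 Pdgfra UMI, the OPC gene Olig1 was at 238 and 342 CPM (members 210 and 181), Sox10 at 6.37 and 7.68 (members 9.42 and 7.10) and Cspg4 at 10.6 and 3.84 (members 3.31 and 4.37). With at least 2 Pdgfra UMIs, Olig1 was at 1110 and 1000 CPM, Sox10 at 106 and 106 and Cspg4 at 151 and 209, and Dlx5 was at 86.3 and 114 against 251 and 296 in members. Scrublet marked 58.6% and 45.2% of the cells with at least 2 Pdgfra UMIs, 6.76% and 3.53% of those with 1, and 4.97% and 6.01% of members.

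Egfr stood higher in both kinds of Pdgfra-bearing cell than in members. It was at 84.9 and 98.3 CPM with 1 Pdgfra UMI and at 61.4 and 59.4 with at least 2, against 50.9 and 39.9 in members. These are values of cells chosen after they had been seen and were not tested.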
